A study of Mus musculus with 6 samples.

Results

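The TNF superfamily genes described here are the ligands, receptors and TRAF adaptors of the family, measured in mouse peritoneal macrophages exposed to a ligand of TLR3 or of TLR2. They were chosen by gene symbol from the probes annotated with a single gene: every symbol of the Tnfsf and Tnfrsf series, the members with names of their own (Tnf, Lta, Ltb, Ltbr, Cd40, Cd40lg, Fas, Fasl, Cd27, Cd70, Ngfr and Eda2r) and the Traf genes. This gave 47 genes of 19935 measured, each with 1 probe: 15 ligands, 26 receptors and 6 TRAF genes. Tnfsf12 and Tnfsf13 share 1 probe with another symbol and were left out, and Traf3 had no probe of its own in the annotation used.

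Ligands of this family are mostly membrane proteins that act as trimers, on the cell surface or after they are shed. They bind receptors that either carry a death domain and recruit caspase-activating adaptors, or bind TRAF proteins, which pass the signal to NF-kB and MAP kinases. Macrophages are a classical source of TNF, and Toll-like receptor signalling itself runs through TRAF6 and TRAF3, so members of the family act both as outputs and as parts of the response.

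All cells were peritoneal macrophages of C57BL/6 mice, and biotin-labelled RNA was hybridised to an Affymetrix array. The poly I:C group had received 2 ug/mL of this synthetic double-stranded RNA, a TLR3 ligand, for 24 h; the PAM group had received 1 ug/mL of a lipopeptide ligand of TLR2 for 24 h; the control group was untreated, with no culture time given. Ligand and time in culture therefore cannot be told apart in the differences from control, while the ligands are compared with each other at the same 24 h. Each group held 2 arrays, and the 2 PAM samples carry different compound names in the labels (PAMCSK3 and PAMCSK4). The labels state neither the sex, age or pooling of the mice nor separate animals or cultures for the arrays of a group, so the p-values here rest on a spread between samples that may be only technical.

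The deposited values are log2 values (the base is taken as 2) from which the median of each probe over the 6 arrays was subtracted. They show differences between arrays and not the level of a gene, so no gene can be ranked against another by level. For a gene whose middle group lies between the other groups, the middle group therefore sits around 0. Differences are given as log2 difference ± SE from limma over all 19935 genes (n = 2 arrays a group, median SE 0.0749), and a gene is called at a Benjamini-Hochberg adjusted p under 0.05. From the rounding steps of the values it was read whether a probe lay at 8 or above on every array before centring. A lower probe can pass this reading by chance, so the class of a single gene is not certain. The range at 8 or above held 92.6% of ribosomal protein probes and 2.71% of olfactory receptor probes. Of the 10 macrophage markers 8 lay there (among them Adgre1, Csf1r and Cd68; not Gata6 and Icam2), as did 0 of 9 B cell markers, 1 of 10 T and NK cell markers (Cd8a), 1 of 10 neutrophil markers (Csf3r), 0 of 7 dendritic cell markers, 0 of 8 mast cell and eosinophil markers and 5 of 9 mesothelial and fibroblast markers (Col1a1, Col1a2, Col3a1, Dcn and Pdgfra). The neutrophil markers' centred values summed to 0.14 to 0.50 with poly I:C, 2.10 to 2.39 with PAM and -0.68 to 0.29 in untreated cells, with 1 of the 10 higher (Csf3r) and 1 lower (Cxcr2) with poly I:C, and 2 higher (S100a8 and Camp) and 1 lower (Cxcr2) with PAM. S100a8 alone measured 2.08 and 1.99 on the PAM arrays, and 7 of the 10 markers were not called with PAM. Of the 7 dendritic cell markers 2 rose with poly I:C (Ccr7 and Kmo) and 1 with PAM (Ccr7), and 0 fell; their values summed to 0.13 to 0.69 with poly I:C, -0.52 to 0.19 with PAM and -1.15 to 0.28 in untreated cells. The macrophage markers themselves moved, 3 higher and 4 lower with each ligand. Cd14 (-1.28 with poly I:C and 2.39 with PAM) and Adgre1 (-0.97 with poly I:C and 1.38 with PAM) fell with poly I:C and rose with PAM. Fcgr1 (2.65 with poly I:C and -1.72 with PAM) and Mertk (0.22 with poly I:C and -1.23 with PAM) went the other way. Icam2 rose with poly I:C (0.63) and was not called with PAM. The macrophage markers summed to 0.03 to 0.11 with poly I:C, 0.99 to 1.37 with PAM and 0.79 to 1.52 in untreated cells. The part of any of these markers in the results below, Tnf, Cd40 and Tnfsf4 included, was not tested. In these bulk samples fewer cells of a type and less RNA per cell cannot be told apart.

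With poly I:C 19 of the 47 members rose and 4 fell, which is 48.9% called against 30.4% of all genes tested (12.1% higher and 18.2% lower). With PAM 14 rose and 4 fell, 38.3% against 25.0% (11.0% higher and 14.0% lower). The numbers that fell changed when single arrays were left out: 7 members fell with PAM without control replicate 1, and 2 fell with poly I:C without poly I:C replicate 1 and likewise without poly I:C replicate 2. Set against PAM, poly I:C gave higher values for 14 members and lower values for 9, 48.9% against 28.7% (12.9% higher and 15.8% lower). The members' median difference was 0.16 with poly I:C, 0.09 with PAM and 0.07 between the ligands, against 0.01, -0.0015 and 0.01 over all genes. At least 2-fold were 9 increases and 0 decreases with poly I:C (over all genes 4.82% changed by as much, 2.77% higher and 2.05% lower), and 8 increases and 1 decrease with PAM (4.20%, 2.27% higher and 1.94% lower). Between the ligands 7 members differed by at least 2-fold, 4 higher and 3 lower (4.97% of all genes).

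The level class of the probes was set beside these shares. Of the members 15 (31.9%) lay at 8 or above on all arrays, close to the 29.9% of all genes. Among genes of this kind, tested on their own, 11 of the 15 members were called with poly I:C where 65.3% of the genes were, 12 with PAM where 58.3% were, and 12 between the ligands where 64.4% were. Of the 19 members called in none of the 3 comparisons, 2 were read as lying at 8 or above on all arrays (Tnfrsf23 and Traf7). Whether the other 17 were detected cannot be read from centred values. Both ligand comparisons share the same 2 control arrays, so their values are given side by side and the ligands are compared by the direct test.

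**Figure D1:**
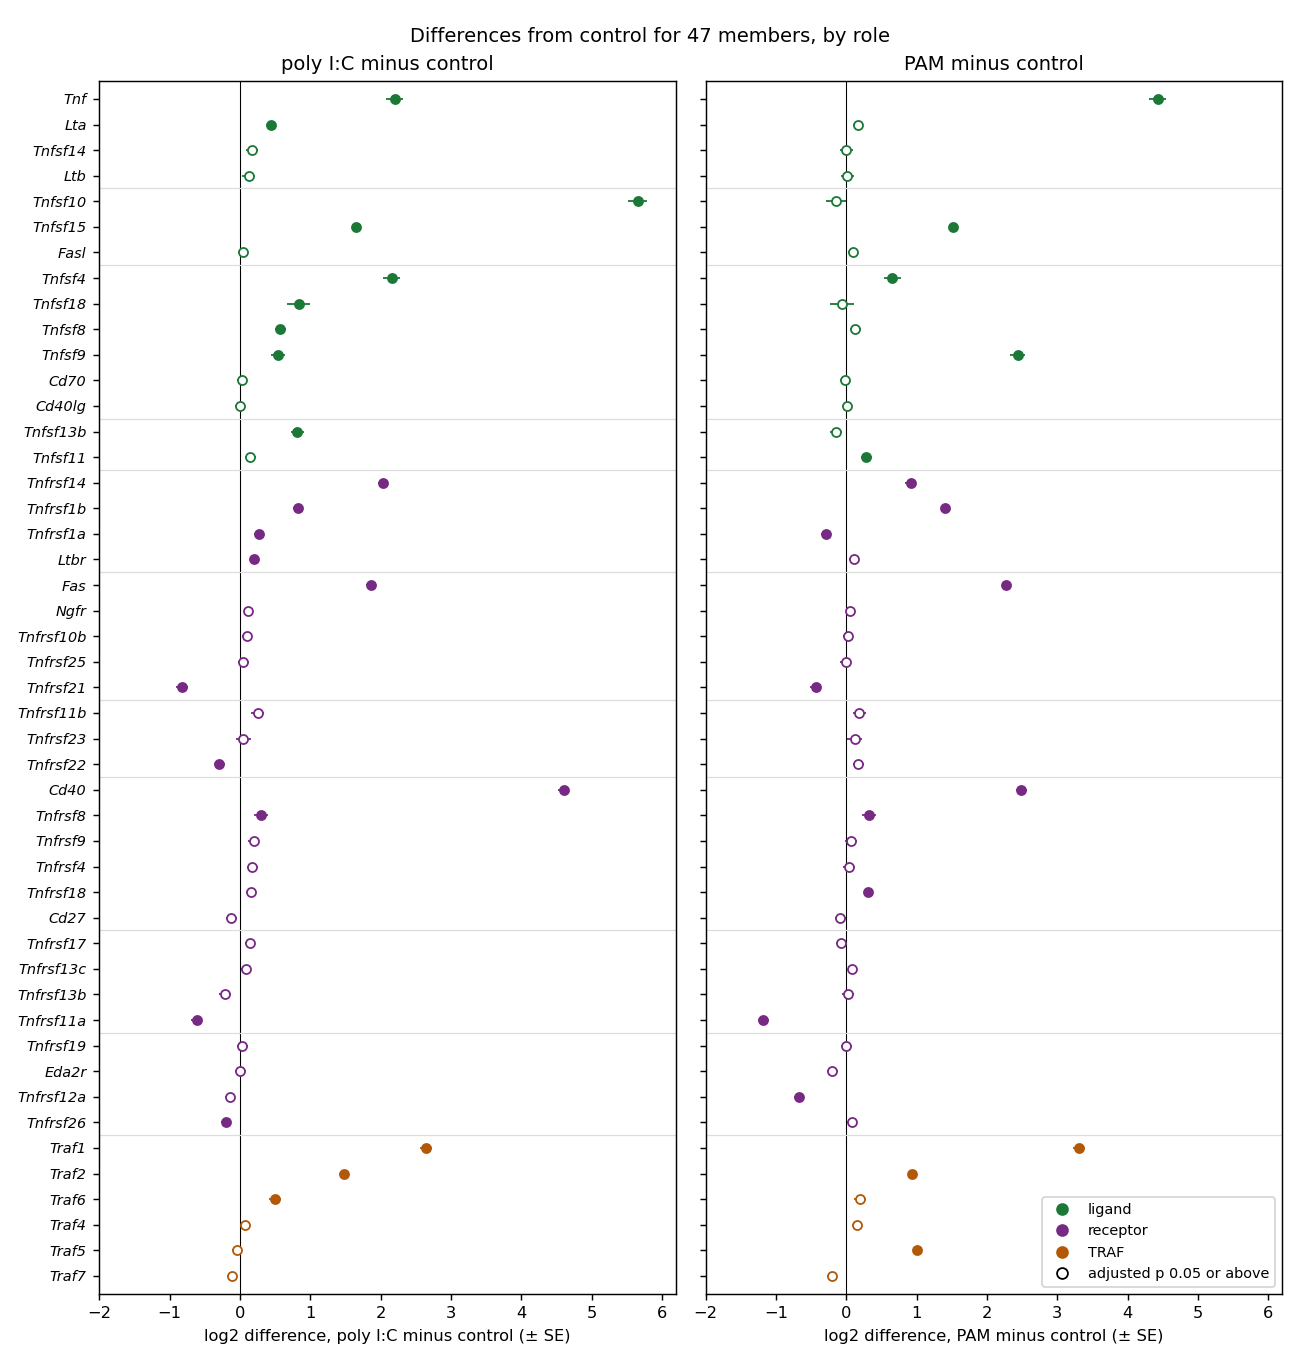
Log2 difference from control (horizontal axis, ± SE, n = 2 arrays a group) of the 47 members for poly I:C (left) and PAM (right), with genes in rows grouped by role; filled points were called at an adjusted p under 0.05. Tnfsf10 and Cd40 reach 5.65 and 4.60 with poly I:C, Tnf and Traf1 reach 4.43 and 3.31 with PAM, and the few filled points left of 0 are all receptors.

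To show sequence beside the members that moved, the 250 bases before the annotated start were read for the 38 members found in the RefSeq promoter table (GRCm38.p6). They were searched on both strands for the interferon-stimulated response element core GAAANNGAAA and for the NF-kB consensus. The other 9 members had no window and were not searched: Cd40, Cd40lg, Cd70, Tnfrsf10b, Tnfrsf11b, Tnfrsf22, Tnfrsf26, Tnfsf4 and Tnfsf9. The ISRE core was present in 4 of the 38 members, Tnfrsf14, Tnfrsf1b, Tnfrsf17 and Tnfsf13b, and in 3.46% of the 27025 genes of the table. The NF-kB consensus was present in 3 members, Ltb, Tnfrsf8 and Tnfrsf9, and in 4.46% of genes, and no match to one motif overlapped the other. Ltb and Tnfrsf9 were called in no comparison, and Tnfrsf8 was called against control with both ligands, near the threshold. Tnf, Fas, Tnfsf15, Traf1 and Traf2, each at least 2-fold higher with poly I:C than in control cells, held no exact match to either motif. A match is a description of these letters and not a binding site. Of the 3 members that carry the ISRE core and rose with poly I:C, Tnfrsf14 and Tnfrsf1b also rose with PAM, Tnfrsf1b by more than with poly I:C. The windows below are those of these 3, followed by that of Tnfsf10, the member with the largest change, which holds no exact match to either motif. They run 5′ to 3′ toward the start, with the ISRE core or its reverse complement in capitals.
Tnfrsf14, chr4:154928078-154928327, minus strand: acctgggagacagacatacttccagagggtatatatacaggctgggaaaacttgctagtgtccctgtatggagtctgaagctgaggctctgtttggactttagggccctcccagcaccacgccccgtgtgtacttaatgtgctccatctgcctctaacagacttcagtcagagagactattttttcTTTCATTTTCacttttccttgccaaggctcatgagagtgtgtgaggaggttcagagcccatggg
Tnfrsf1b, chr4:145246871-145247120, minus strand: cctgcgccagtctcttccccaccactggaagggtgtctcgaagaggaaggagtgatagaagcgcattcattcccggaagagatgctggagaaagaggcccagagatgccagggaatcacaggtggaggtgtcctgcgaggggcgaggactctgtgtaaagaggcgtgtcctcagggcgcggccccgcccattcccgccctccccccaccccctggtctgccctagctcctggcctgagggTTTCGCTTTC
Tnfsf13b, chr8:10006383-10006632, plus strand: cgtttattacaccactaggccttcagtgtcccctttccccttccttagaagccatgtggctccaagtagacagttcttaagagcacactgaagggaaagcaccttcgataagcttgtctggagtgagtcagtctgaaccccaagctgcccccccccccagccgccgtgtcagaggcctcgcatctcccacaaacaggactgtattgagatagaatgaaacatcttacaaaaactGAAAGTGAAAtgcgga
Tnfsf10, chr3:27316827-27317076, plus strand: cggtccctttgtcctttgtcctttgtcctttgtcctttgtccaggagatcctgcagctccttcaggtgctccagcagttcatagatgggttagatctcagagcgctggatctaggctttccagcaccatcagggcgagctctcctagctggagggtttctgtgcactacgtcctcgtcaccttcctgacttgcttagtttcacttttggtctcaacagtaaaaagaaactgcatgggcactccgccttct
In Tnfrsf14 the match begins 64 bases before the start, in Tnfrsf1b 10 bases and in Tnfsf13b 16 bases before it. Tnfsf13b has 2 annotated starts, and the window of the other one holds no match. Tnfrsf17, with a match 101 bases before its start, differed by 0.15 ± 0.07 between poly I:C and control without passing.

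TNF, the founding ligand, and the lymphotoxins come first among the ligands. Tnf measured -0.19 and 0.19 with poly I:C, 2.27 and 2.19 with PAM and -2.27 and -2.13 in untreated cells. The groups did not overlap, with PAM highest and untreated cells lowest. The difference from control was 2.20 ± 0.12 with poly I:C, which is 4.59-fold (adjusted p = 1.01e-06, limma), and 4.43 ± 0.12 with PAM, 21.5-fold (adjusted p = 1.8e-08). Tnf was 4.68-fold lower under poly I:C than under PAM (-2.23 ± 0.12; adjusted p = 8.66e-07). Lta, which encodes lymphotoxin alpha, measured 0.22 and 0.33 with poly I:C, -0.01 and 0.01 with PAM and -0.13 and -0.20 in untreated cells, a small rise with poly I:C (0.44 ± 0.07; adjusted p = 0.00105) and no call with PAM (0.17 ± 0.07). Lta was also higher under poly I:C than under PAM (0.27; adjusted p = 0.0158), a call lost without PAM replicate 1 (0.0912 as adjusted p), PAM replicate 2 (0.0709) or poly I:C replicate 2 (0.12). Ltb, the membrane-anchoring lymphotoxin chain, and Tnfsf14, which encodes LIGHT, did not pass in any comparison: Ltb differed from control by 0.12 with poly I:C and 0.02 with PAM, and Tnfsf14 by 0.17 with poly I:C.

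Of the ligands of death domain receptors, TRAIL moved most. Tnfsf10, which encodes TRAIL, measured 5.48 and 5.66 with poly I:C, -0.15 and -0.30 with PAM and -0.31 and 0.15 in untreated cells. Both poly I:C arrays stood far above the other 4, which overlapped each other. It was 50.4-fold higher with poly I:C than in control cells (5.65 ± 0.14; adjusted p = 7.97e-09) and 55.7-fold higher than with PAM (5.80 ± 0.14; adjusted p = 8.26e-09). Under quantile normalization these differences were smaller, 4.70 against control and 4.87 against PAM, both called. The PAM difference was -0.15 ± 0.14, with a 95% interval of -0.46 to 0.17. Tnfsf15, which encodes TL1A, the ligand of the death receptor DR3, followed another pattern and measured 0.12 and 0.13 with poly I:C, -0.02 and 0.02 with PAM and -1.53 and -1.52 in untreated cells. Both treated groups lay well above untreated cells, by 1.65 ± 0.06 with poly I:C (3.14-fold; adjusted p = 1.04e-07) and 1.52 ± 0.06 with PAM (2.87-fold; adjusted p = 2.38e-07). Between the ligands Tnfsf15 differed by 0.13 without passing (adjusted p = 0.193), with a 95% interval of -0.02 to 0.27. Fasl, the ligand of Fas, differed from control by 0.04 ± 0.07 with poly I:C and 0.10 ± 0.07 with PAM and was not called.

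Costimulatory ligands, which antigen-presenting cells show to T cells, rose in 4 of 6 cases with poly I:C, where 12.1% of all genes rose, and in 2 of 6 with PAM, where 11.0% did, and none fell. With PAM the 33.3% called lay near the 25.0% of all genes called in either direction. Tnfsf4, which encodes the ligand of OX40, measured 1.36 and 1.64 with poly I:C, -0.05 and 0.05 with PAM and -0.49 and -0.82 in untreated cells. The 3 groups did not overlap, and the order was poly I:C, PAM, untreated. It rose 4.47-fold with poly I:C (2.16 ± 0.12; adjusted p = 1.6e-06) and 1.58-fold with PAM (0.66 ± 0.12; adjusted p = 0.00373), and the ligands differed by 1.50 ± 0.12 (adjusted p = 1.62e-05). Tnfsf9, which encodes the ligand of the receptor CD137, was highest with PAM and measured -0.06 and 0.06 with poly I:C, 1.85 and 1.94 with PAM and -0.38 and -0.70 in untreated cells. It rose 1.45-fold with poly I:C (0.54 ± 0.10; adjusted p = 0.00339) and 5.41-fold with PAM (2.44 ± 0.10; adjusted p = 2.96e-07), and was 3.72-fold lower under poly I:C than under PAM (adjusted p = 1.11e-06). Tnfsf18, the ligand gene of GITR, measured 0.49 and 1.09 with poly I:C, -0.22 and 0.01 with PAM and -0.01 and -0.07 in untreated cells, with the widest gap between replicates among the poly I:C values of the members that were called. It rose with poly I:C (0.83 ± 0.17; adjusted p = 0.00449) and was not called with PAM (-0.06 ± 0.17); the ligands differed by 0.89 ± 0.17 (adjusted p = 0.00315). Tnfsf8, the ligand gene of CD30, rose by 0.58 ± 0.08 with poly I:C (adjusted p = 0.000364), differed by 0.13 with PAM without passing, and was higher under poly I:C than under PAM by 0.45 (adjusted p = 0.00175). Cd70 and Cd40lg, ligands typical of activated lymphocytes, were not called: Cd70 differed from control by 0.03 ± 0.07 with poly I:C and -0.02 ± 0.07 with PAM, and Cd40lg by -0.002 ± 0.07 with poly I:C and 0.01 ± 0.07 with PAM.

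Of the ligands for B cells and osteoclasts, Tnfsf13b, which encodes the B cell survival factor BAFF, measured 0.82 and 0.81 with poly I:C, -0.17 and -0.13 with PAM and -0.12 and 0.12 in untreated cells. Its poly I:C arrays were nearly equal and stood above all others. It rose 1.76-fold with poly I:C (0.82 ± 0.09; adjusted p = 9.05e-05), was not called with PAM (-0.15 ± 0.09), and differed between the ligands by 0.97 ± 0.09 (adjusted p = 3.01e-05). Tnfsf11, which encodes RANKL, rose slightly with PAM (0.29 ± 0.08; adjusted p = 0.0297) and differed by 0.15 with poly I:C without passing. The PAM call of Tnfsf11 was lost without control replicate 2 (adjusted p = 0.127), PAM replicate 1 (0.181) or PAM replicate 2 (0.0676). Over all 15 ligands, 9 rose and 0 fell with poly I:C (60% called, where 30.4% of all genes were), and 5 rose and 0 fell with PAM by limma (33.3%, not far from the 25.0% of all genes); at an unadjusted p under 0.05 the number of decreases was also 0.

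**Figure D2:**
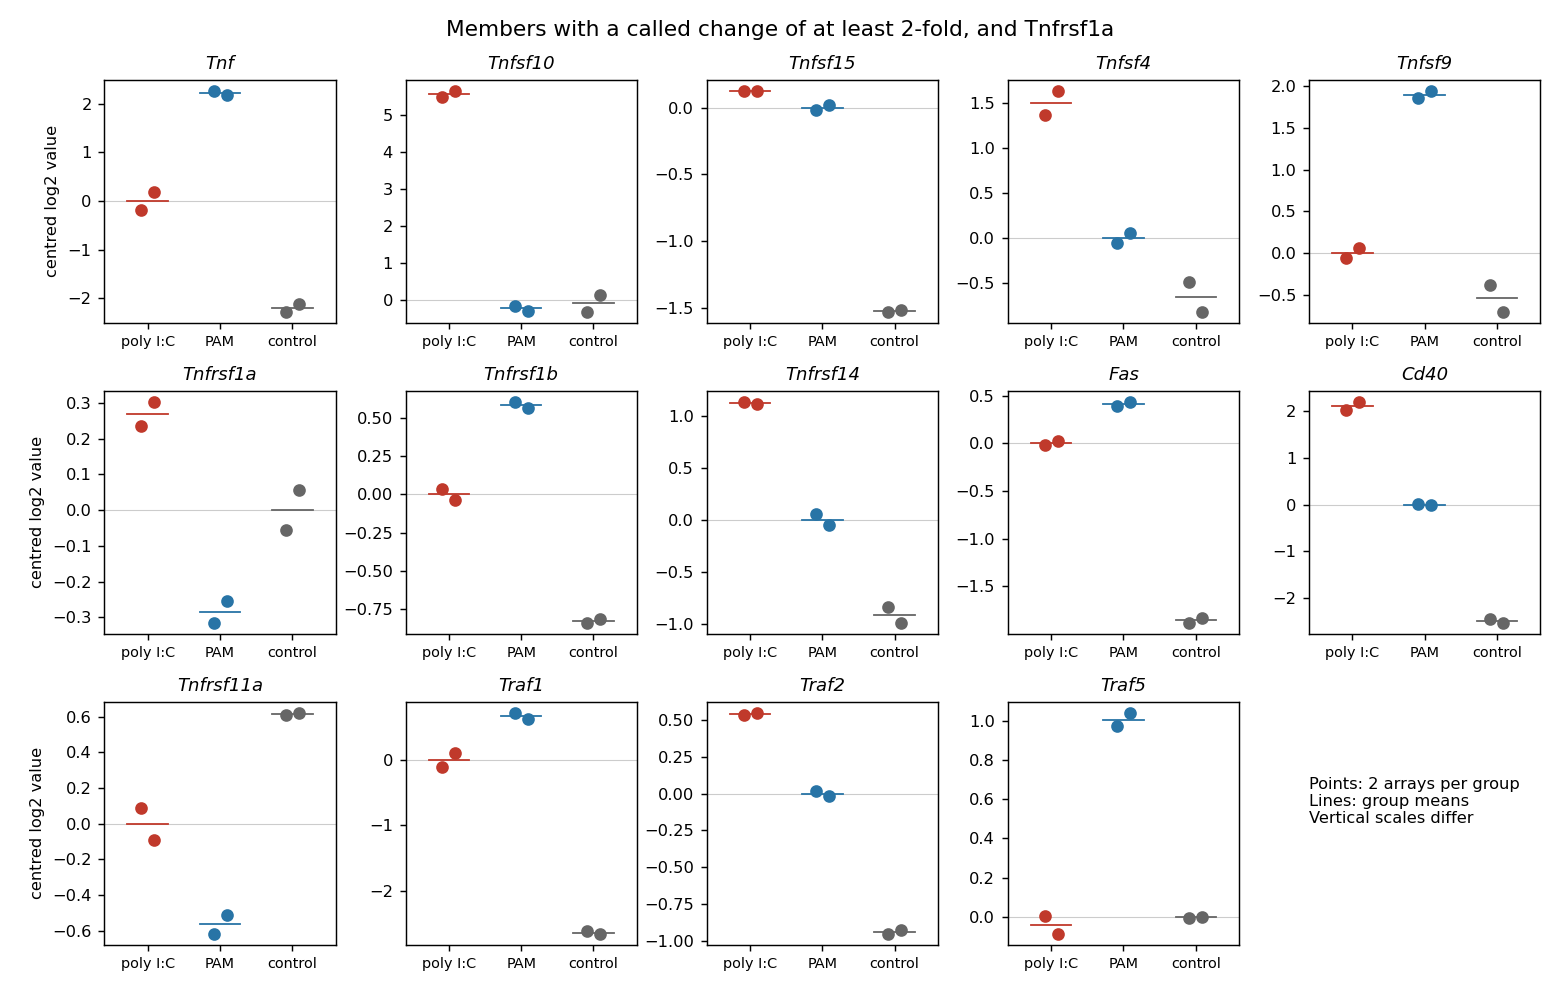
Centred log2 value (vertical axis, scales differ) of each array for the 13 members with a called difference of at least 2-fold and for Tnfrsf1a, in poly I:C (red), PAM (blue) and control (grey) cells; points are the 2 arrays of a group and lines their mean. Tnfsf10, Tnfsf15, Tnfsf4, Tnfrsf1a, Tnfrsf14, Cd40 and Traf2 have their highest mean with poly I:C, Tnf, Tnfsf9, Tnfrsf1b, Fas, Traf1 and Traf5 with PAM, and Tnfrsf11a is highest in control cells at 0.61 and 0.62.

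The receptors for TNF and lymphotoxin were called in all 4 cases with poly I:C, where 30.4% of all genes were. Of the 4, Tnfrsf1a, Tnfrsf1b and Ltbr were read as lying at 8 or above on all arrays, where 65.3% of genes were called. Tnfrsf1a, the death domain receptor for TNF found on most cells, measured 0.24 and 0.30 with poly I:C, -0.31 and -0.25 with PAM and -0.05 and 0.05 in untreated cells. The 3 groups did not overlap, with untreated cells between the ligands. It was higher with poly I:C than in control cells by 0.27 ± 0.07 (adjusted p = 0.0176) and lower with PAM (-0.28 ± 0.07; adjusted p = 0.0166), which makes it the one member of 47 called in opposite directions, against 644 of all genes (3.23%). Its pattern, higher with the TLR3 ligand and lower with the TLR2 ligand, was shown by 270 genes (1.35%). The direct difference was 0.55 ± 0.07, 1.47-fold (adjusted p = 0.000299), and kept its call in each of the 6 fits without 1 array. The single calls did not: that with poly I:C was lost without control replicate 1 (adjusted p = 0.0729) or poly I:C replicate 2 (0.118), and that with PAM without control replicate 2 (0.078), PAM replicate 1 (0.119) or PAM replicate 2 (0.0541).

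Tnfrsf1b, the second TNF receptor, which lacks a death domain and binds TRAF2, measured 0.04 and -0.04 with poly I:C, 0.60 and 0.56 with PAM and -0.84 and -0.81 in untreated cells. It was higher with both ligands than in untreated cells, 1.77-fold with poly I:C (0.83 ± 0.07; adjusted p = 1.41e-05) and 2.65-fold with PAM (1.41 ± 0.07; adjusted p = 5.32e-07); the ligands differed by -0.58 ± 0.07 (adjusted p = 0.00013). The 2 TNF receptors thus differed between the ligands in opposite directions, Tnfrsf1a higher and Tnfrsf1b lower under poly I:C than under PAM. Tnfrsf14, which encodes HVEM, the receptor of LIGHT, measured 1.13 and 1.11 with poly I:C, 0.05 and -0.05 with PAM and -0.84 and -0.99 in untreated cells. It rose 4.1-fold with poly I:C (2.04 ± 0.08; adjusted p = 9.37e-08) and 1.89-fold with PAM (0.92 ± 0.08; adjusted p = 2.15e-05), and differed between them by 1.12 ± 0.08 (adjusted p = 4.63e-06). Ltbr, the lymphotoxin beta receptor, rose by 0.20 ± 0.07 with poly I:C (adjusted p = 0.0428), and this call was lost in each of the 6 fits without 1 array (adjusted p from 0.0717 without control replicate 2 to 0.201 without poly I:C replicate 1). With PAM Ltbr differed by 0.10 without passing.

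Among the receptors with a death domain, Fas rose and Tnfrsf21 fell. Fas, the receptor through which Fasl triggers apoptosis, measured -0.02 and 0.02 with poly I:C, 0.40 and 0.43 with PAM and -1.88 and -1.83 in untreated cells. With both ligands it lay clear of untreated cells, poly I:C by 1.86 ± 0.06 (3.62-fold; adjusted p = 5.83e-08) and PAM by 2.27 ± 0.06 (4.83-fold; adjusted p = 2.4e-08). Fas was 1.33-fold lower under poly I:C than under PAM (adjusted p = 0.000979). Tnfrsf21, which encodes DR6, measured -0.29 and -0.49 with poly I:C, -0.03 and 0.03 with PAM and 0.40 and 0.48 in untreated cells, and it was 1.77-fold lower with poly I:C (-0.83 ± 0.08; adjusted p = 5.97e-05) and 1.35-fold lower with PAM (-0.44 ± 0.08; adjusted p = 0.00375). The difference between the ligands (-0.39; adjusted p = 0.00606) was lost as a call without poly I:C replicate 2 (adjusted p = 0.0543). Tnfrsf10b, which encodes the TRAIL receptor with a death domain, was not called in either comparison: it differed by 0.10 ± 0.07 with poly I:C (95% interval -0.05 to 0.26) and 0.02 ± 0.07 with PAM. Tnfrsf25, which encodes DR3, the receptor of TL1A, differed by 0.04 with poly I:C and -0.01 with PAM, and Ngfr, the low-affinity neurotrophin receptor, by 0.12 with poly I:C and 0.06 with PAM, all without passing.

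Decoy receptors bind a ligand without passing a signal. Tnfrsf22, a decoy TRAIL receptor of the mouse, measured -0.33 and -0.26 with poly I:C, 0.15 and 0.19 with PAM and -0.08 and 0.08 in untreated cells. It was lower under poly I:C than under PAM (-0.47 ± 0.08; adjusted p = 0.00137) and fell against control by 0.29 (adjusted p = 0.0162), the second of which was lost without control replicate 2 (adjusted p = 0.0879), poly I:C replicate 1 (0.108) or poly I:C replicate 2 (0.0514). Tnfrsf23, the other decoy TRAIL receptor, was read as lying at 8 or above on all arrays and differed by 0.05 with poly I:C and 0.12 with PAM without passing. Tnfrsf11b, which encodes osteoprotegerin, the decoy of RANKL, differed by 0.25 ± 0.09 with poly I:C (adjusted p = 0.073) and 0.18 ± 0.09 with PAM.

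Of the costimulatory receptors Cd40 moved most. CD40 on macrophages receives the signal of CD40 ligand from T cells. Cd40 measured 2.03 and 2.20 with poly I:C, 0.0047 and -0.0047 with PAM and -2.45 and -2.52 in untreated cells. The 3 groups lay far apart, with poly I:C highest and untreated cells lowest. It rose 24.3-fold with poly I:C (4.60 ± 0.08; adjusted p = 9.6e-10) and 5.6-fold with PAM (2.49 ± 0.08; adjusted p = 3.76e-08), and was 4.33-fold higher under poly I:C than under PAM (2.11 ± 0.08; adjusted p = 8.38e-08). Under quantile normalization the poly I:C difference of Cd40 was 3.41 and that between the ligands 1.49, both called. Tnfrsf18, which encodes GITR, rose with PAM (0.31 ± 0.07; adjusted p = 0.00693; 0.0512 as adjusted p without PAM replicate 2) and differed by 0.16 with poly I:C without passing. Tnfrsf8, which encodes CD30, measured 0.02 and 0.07 with poly I:C, 0.14 and -0.02 with PAM and -0.11 and -0.40 in untreated cells, and both its calls were near the threshold, 0.30 ± 0.10 with poly I:C (adjusted p = 0.0498) and 0.32 ± 0.10 with PAM (adjusted p = 0.0475). They were lost in 5 of the 6 fits without 1 array, all but that without control replicate 1, with adjusted p as high as 0.26 (poly I:C) and 0.271 (PAM). Cd27, Tnfrsf4 and Tnfrsf9, receptors best known on T cells, were not called, with differences between -0.12 and 0.19 from control. None of the 10 T and NK cell markers was called in either comparison, and the sum of their centred values was 0.36 to 0.47 with poly I:C, -0.16 to 0.30 with PAM and -0.63 to 0.20 in untreated cells.

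Tnfrsf11a, which encodes RANK, the receptor that drives osteoclast formation, fell with both ligands. It measured 0.09 and -0.09 with poly I:C, -0.62 and -0.51 with PAM and 0.61 and 0.62 in untreated cells, with untreated cells highest and no overlap between groups. It was 1.53-fold lower with poly I:C (-0.61 ± 0.08; adjusted p = 0.000319) and 2.26-fold lower with PAM (-1.18 ± 0.08; adjusted p = 5.58e-06), and higher under poly I:C than under PAM by 0.56 (adjusted p = 0.000561). The BAFF and APRIL receptor genes of B cells, Tnfrsf13b, Tnfrsf13c and Tnfrsf17, were not called against control, with differences from -0.21 to 0.15. Tnfrsf17 was higher under poly I:C than under PAM by 0.22 (adjusted p = 0.0436), a call lost without any 1 of the PAM or poly I:C arrays (adjusted p from 0.0522 without PAM replicate 2 to 0.289 without PAM replicate 1; 0.194 and 0.111 without poly I:C replicates 1 and 2). Of 9 B cell markers 2 were higher with poly I:C (Ms4a1 and Cd79b) and 3 with PAM (also Blk), and their centred values summed to -0.02 to 0.27 with poly I:C, 0.46 to 1.31 with PAM and -1.84 to -0.40 in untreated cells; their part in the receptor values was not tested.

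Of the remaining receptors, Tnfrsf12a, which encodes Fn14, the receptor of TWEAK, measured -0.02 and 0.02 with poly I:C, -0.49 and -0.57 with PAM and 0.14 and 0.15 in untreated cells. PAM arrays stood below the other 4, and it fell 1.6-fold with PAM (-0.68 ± 0.07; adjusted p = 6.06e-05), while the poly I:C difference was -0.14 ± 0.07 without passing. The difference between the ligands was 0.53 ± 0.07 (adjusted p = 0.000227). Fibroblasts also express Fn14: of the 9 mesothelial and fibroblast markers 0 rose and 3 fell with poly I:C (Upk3b, Col1a1 and Col3a1), and 1 rose (Dcn) and 1 fell (Upk3b) with PAM, with centred values summing to -1.57 to -0.95 with poly I:C, 0.93 to 1.02 with PAM and -0.67 to 2.07 in untreated cells, and their part in this result was not tested. Tnfrsf26 was lower with poly I:C by 0.20 against control (-0.20 ± 0.07; adjusted p = 0.0468) and by 0.28 against PAM (-0.28 ± 0.07; adjusted p = 0.0116). The first call was lost in 5 of the 6 fits without 1 array, all but that without control replicate 2 (adjusted p up to 0.165, without control replicate 1), and the second without any 1 of the PAM or poly I:C arrays (up to 0.0815, without PAM replicate 1). Tnfrsf19 and Eda2r were not called, Eda2r at -0.20 ± 0.08 with PAM. Over the 26 receptors, 7 rose and 4 fell with poly I:C (42.3% called, where 30.4% of all genes were), and 6 rose and 4 fell with PAM (38.5%, where 25.0% were). The share of receptors that fell, 15.4% with each ligand, was near that of all genes (18.2% with poly I:C and 14.0% with PAM).

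TRAF adaptors bind the tails of receptors without a death domain. Traf1, itself a target of NF-kB and a partner of TRAF2, measured -0.11 and 0.11 with poly I:C, 0.72 and 0.63 with PAM and -2.62 and -2.66 in untreated cells. It rose 6.23-fold with poly I:C (2.64 ± 0.08; adjusted p = 3.57e-08) and 9.94-fold with PAM (3.31 ± 0.08; adjusted p = 1.41e-08), and was 1.59-fold lower under poly I:C than under PAM (adjusted p = 0.000258). Under quantile normalization the poly I:C difference of Traf1 was 1.99, still called. Traf2, the adaptor of both TNF receptors, measured 0.53 and 0.54 with poly I:C, 0.02 and -0.02 with PAM and -0.95 and -0.93 in untreated cells. It rose more with poly I:C, 2.78-fold (1.47 ± 0.06; adjusted p = 2.23e-07) against 1.91-fold with PAM (0.94 ± 0.06; adjusted p = 5.27e-06), a difference of 0.54 ± 0.06 between the ligands (adjusted p = 0.000167).

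Traf5, a relative of Traf2 that serves costimulatory receptors, measured 0.0022 and -0.09 with poly I:C, 0.97 and 1.04 with PAM and -0.0038 and -0.0022 in untreated cells. Only the PAM arrays stood apart, by 1.01 ± 0.07 or 2.01-fold (adjusted p = 5.18e-06), and the poly I:C difference was -0.04 ± 0.07 with a 95% interval of -0.19 to 0.11. Traf5 was 2.07-fold lower under poly I:C than under PAM (-1.05 ± 0.07; adjusted p = 3.25e-06). Traf6, which serves CD40, RANK and Toll-like receptors, measured 0.28 and 0.31 with poly I:C, -0.06 and 0.06 with PAM and -0.30 and -0.10 in untreated cells. It rose with poly I:C (0.49 ± 0.08; adjusted p = 0.00168) and differed by 0.20 ± 0.08 with PAM without passing. The ligand difference of Traf6 (0.30; adjusted p = 0.0269) was lost without PAM replicate 1 (adjusted p = 0.175), poly I:C replicate 1 (0.103) or poly I:C replicate 2 (0.134). Traf4 measured -0.06 and 0.02 with poly I:C, 0.08 and 0.05 with PAM and -0.02 and -0.15 in untreated cells, and Traf7 0.01 and -0.01 with poly I:C, -0.15 and -0.02 with PAM and 0.11 and 0.12 in untreated cells; neither was called.

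The direct comparison ordered the members by ligand. Higher under poly I:C than under PAM were Tnfsf10, Cd40, Tnfsf4 and Tnfrsf14 by at least 2-fold, and then Tnfsf13b, Tnfsf18, Tnfrsf11a, Tnfrsf1a, Traf2, Tnfrsf12a, Tnfsf8, Traf6, Lta and Tnfrsf17 by 0.97 down to 0.22. Lower under poly I:C than under PAM by at least 2-fold were Tnf (-2.23), Tnfsf9 (-1.90) and Traf5 (-1.05), followed by Traf1, Tnfrsf1b, Tnfrsf22, Fas, Tnfrsf21 and Tnfrsf26. Over all genes 2.59% were higher and 2.38% lower by at least 2-fold. Of the 14 members called with both ligands against control, 12 differed between the ligands, and the other 2, Tnfsf15 and Tnfrsf8, did not pass. For Tnfrsf8 the ligand difference was -0.02 with a 95% interval of -0.24 to 0.21. Of the 9 members called with poly I:C and not with PAM 8 were called between the ligands, all but Ltbr, and of the 4 called with PAM and not with poly I:C 2 were, Tnfrsf12a and Traf5. Over all genes 28.7% were called between the ligands. The comparisons share arrays, and the share among all genes with the same calls against control was not counted. These numbers therefore do not set the members apart from other genes. The doses were 2 ug/mL of poly I:C and 1 ug/mL of PAM at 24 h, so the comparison holds for these doses and this time.

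**Figure D3:**
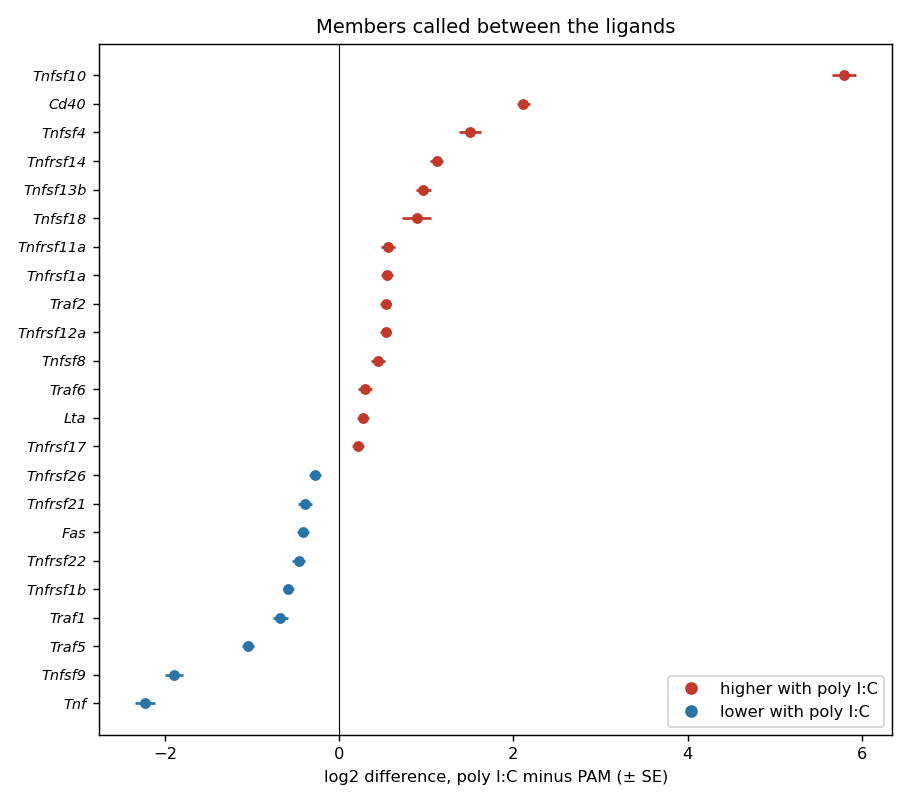
Log2 difference poly I:C minus PAM (horizontal axis, ± SE, n = 2 arrays a group) of the 23 members called between the ligands, in order of size; red points are higher and blue points lower with poly I:C. Tnfsf10 at 5.80 stands apart from the next, Cd40 at 2.11, and Tnf is lowest at -2.23.

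Many members lie beside each other in the genome. In the RefSeq gene order 21 of the 47 formed 8 runs with at most 1 protein-coding gene between neighbours. Of these runs 5 held both called and uncalled members with poly I:C, and 6 did with PAM. Of all 47 members 48.9% were called with poly I:C and 38.3% with PAM. How many mixed runs these shares alone would give was not worked out. Tnf on chromosome 17 is flanked by Ltb and Lta, which with PAM differed by 0.02 and 0.17 where Tnf differed by 4.43. Tnfsf9 on the same chromosome is followed by Cd70 and then Tnfsf14, at 2.44 with PAM beside -0.02 for Cd70. Tnfsf4, Tnfsf18 and Fasl follow each other on chromosome 1, and with poly I:C they differed by 2.16, 0.83 and 0.04. Tnfsf15 and Tnfsf8 are neighbours on chromosome 4, with 1.65 and 0.58 with poly I:C and 1.52 and 0.13 with PAM. Tnfrsf26, Tnfrsf22 and Tnfrsf23 lie together on chromosome 7, and the first 2 were both lower under poly I:C than under PAM. How far the probes of these related genes cross-hybridise was not tested.

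Of the other genes of the pathway, 41 of 45 listed were measured. With poly I:C 23 rose and 6 fell (70.7% called, where 30.4% of all genes were), with PAM 17 rose and 7 fell (58.5%, where 25.0% were), and in the direct comparison poly I:C gave 16 higher and 13 lower values (70.7%, where 28.7% were). Their median difference was 0.23 with poly I:C and 0.12 with PAM. The shares called among genes at 8 or above on all arrays, tested on their own, were 65.3% with poly I:C, 58.3% with PAM and 64.4% between the ligands. How many of the 41 genes lay at that level was not counted. Among 11 adaptors and kinases of the receptor complex, Tank, which binds TRAF proteins, rose with both ligands (1.29 ± 0.08 with poly I:C and 1.19 ± 0.08 with PAM). Map3k5, the stress kinase ASK1 that TRAF2 engages, measured -0.50 and -0.50 with poly I:C, 1.64 and 1.62 with PAM and -0.12 and 0.12 in untreated cells. It moved in opposite directions, lower with poly I:C (-0.50 ± 0.09; adjusted p = 0.00169) and higher with PAM (1.63 ± 0.09; adjusted p = 1.11e-06). Ikbkg, the regulatory subunit of the IkB kinase, rose with PAM (0.90), and Fadd, the adaptor that brings caspase 8 to death receptors, with poly I:C (0.37).

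Of 13 ubiquitin ligases, deubiquitinases and their partners, 10 rose and 2 fell with poly I:C, where 12.1% of all genes rose and 18.2% fell. With PAM 3 rose and 4 fell, where 11.0% of all genes rose and 14.0% fell. Rnf31, the catalytic subunit of the linear ubiquitin ligase, measured 1.75 and 1.78 with poly I:C, 0.02 and -0.02 with PAM and -0.14 and -0.07 in untreated cells. It rose by 1.87 ± 0.07 with poly I:C (adjusted p = 6.06e-08) and differed by 0.11 ± 0.07 with PAM without passing; the ligands differed by 1.77 (adjusted p = 9.36e-08). Birc3, an inhibitor of apoptosis protein that TRAF2 recruits, rose by 1.14 with poly I:C and 1.78 with PAM. Tnfaip3, the deubiquitinase A20, and its partner Tnip1 rose with both ligands and were lower under poly I:C than under PAM (-0.83 and -0.72).

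All 6 measured genes of the death branch were called with poly I:C, 5 of them higher, where 30.4% of all genes and 65.3% of those at 8 or above on all arrays were called. Mlkl, the executor of necroptosis, rose by 2.95 ± 0.08 with poly I:C and 1.10 ± 0.08 with PAM, whereas Ripk3, the kinase that activates it, fell with both ligands (-0.24 with poly I:C and -0.47 with PAM). Cflar, which encodes the caspase 8 inhibitor c-FLIP, rose by 1.67 with poly I:C and 1.96 with PAM. Bid and Casp8 were higher under poly I:C than under PAM by 1.00 and 1.05. The noncanonical NF-kB genes Nfkb2 and Relb rose with poly I:C by 1.59 and 1.56 and with PAM by 2.08 and 1.20, and the other 3 of that list (Map3k14, Traf3ip2 and Traf3ip3) were not called against control. Of 6 genes of ligand and receptor shedding, Adam17, the protease that releases TNF from the membrane, rose by 0.36 ± 0.07 with poly I:C and 0.81 ± 0.07 with PAM, and Rhbdf2, which carries it to the surface, by 1.13 with poly I:C and 0.98 with PAM. Adam10 fell with both (-0.68 with poly I:C and -0.27 with PAM), and Timp3, an inhibitor of ADAM17, fell with poly I:C (-0.34) and rose with PAM (0.31), a difference of -0.66 between the ligands. Of the 9 mesothelial and fibroblast markers 0 were higher and 4 lower under poly I:C than under PAM. The part of these markers in the Timp3 values was not tested.

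**Figure D4:**
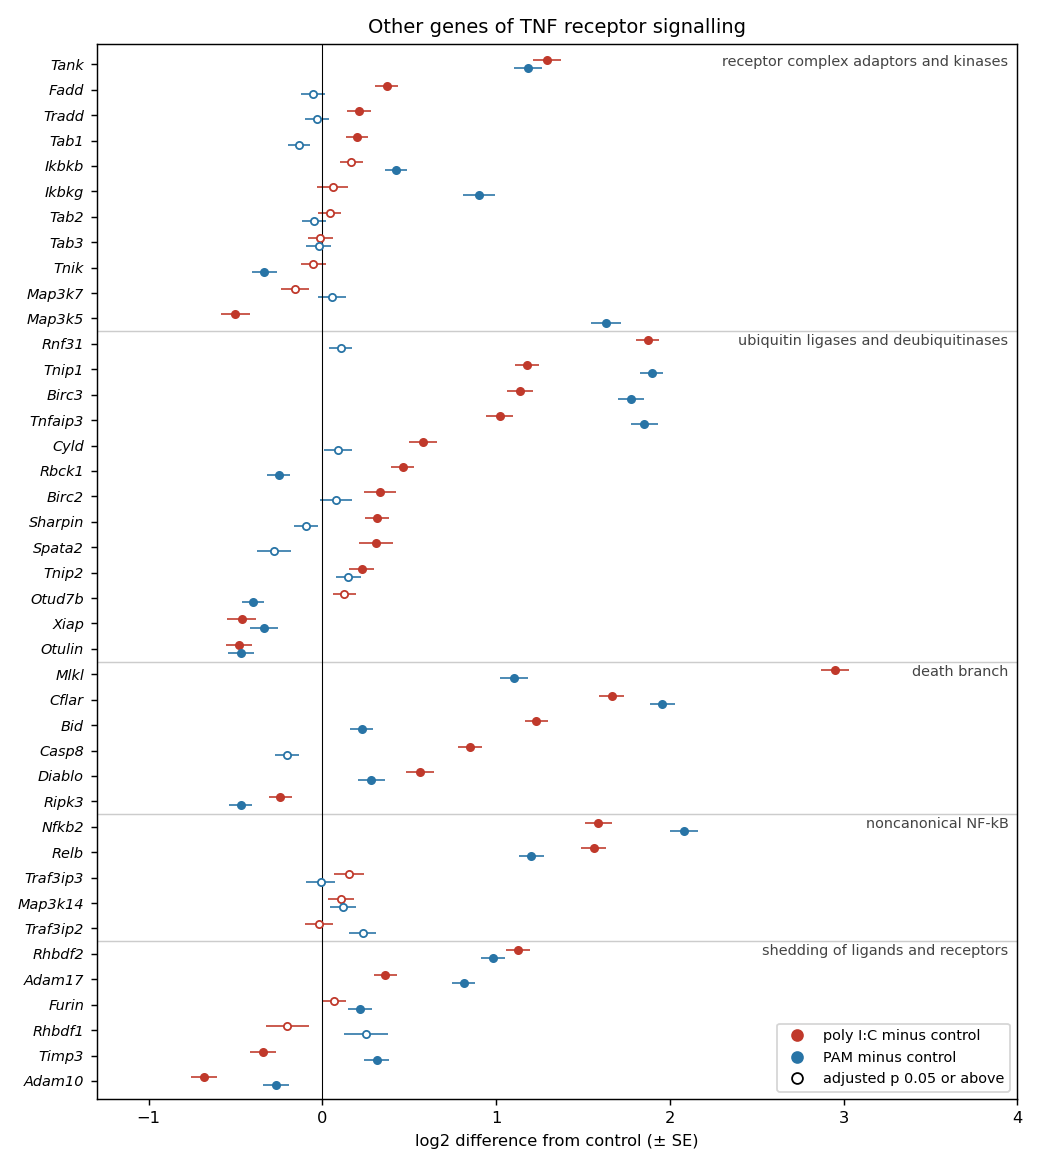
Log2 difference from control (horizontal axis, ± SE, n = 2 arrays a group) of the 41 other pathway genes in 5 lists, for poly I:C (red) and PAM (blue); filled points were called. Mlkl reaches 2.95 with poly I:C, and Map3k5 lies on opposite sides of 0 for poly I:C (-0.50) and PAM (1.63).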

How the data were processed

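Total RNA of 6 samples was labelled with biotin for an Affymetrix array, per the labels' protocols. The authors deposited log2 values of 28815 probes, centred per probe; how they were summarized, normalized and logged is not given in the sources used here. Array medians lay between -0.00491 and 0.00721, and all 6 columns were used as deposited. Of the probes 21780 carried 1 gene symbol in the platform annotation, 1605 several and 5430 none; single-symbol probes were averaged per gene. Members, role lists and pathway lists were chosen with earlier results of these data known. limma 3.58.1 in R 4.3.3 fitted 1 mean per group over 6 arrays, tested on simulated data (eBayes, 3 residual and 5.68 prior degrees of freedom), with Benjamini-Hochberg adjustment over all genes in each of 3 comparisons. Array values were given for members called at 2-fold or more in a comparison, and for Tnf, its receptors and the TRAF genes; those of other members were added after their values were seen. Pathway genes named were up to 3 per list and comparison with the largest called differences. Values at 8 or above were read from steps of the single-precision numbers (tolerance 0.005 steps). Replicate numbers were not used as pairs in the main fit, and the labels do not say whether they mark shared animals or cultures. Replicate 1 minus 2 correlated at -0.0101 between poly I:C and PAM, -0.0727 between poly I:C and control, and 0.155 between PAM and control over genes. These values cannot settle whether the samples were paired. The number of arrays limits precision. Python 3.11.15 drew the figures and searched promoters.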

Additional observations from a re-analysis of the deposited data

How the results depend on the processing

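Of the 64 called differences of members, 50 kept direction and call under the alternatives followed gene by gene (centring, quantile normalization, trend, robust prior, 4 arrays, replicate block and each array left out), 14 lost the call under at least 1, and 0 reversed. A stricter threshold, adjusted p under 0.01, left 18 with poly I:C, 15 with PAM and 19 between the ligands, and each probe on its own 22, 17 and 23. Centring each array and the variance trend changed 0 of the 64 calls; the trend is over centred values and carries no level. Quantile normalization ended 3 (Ltbr, Tnfrsf22 and Tnfrsf26 with poly I:C), a fit of only the 4 arrays compared 4 (Ltbr, Tnfrsf26 and Tnfrsf8 with poly I:C, Tnfrsf8 with PAM), and the robust prior 1 (Tnfrsf8 with poly I:C, adjusted p = 0.0513). With the replicate block 3 were lost: Ltbr (adjusted p = 0.0579) and Tnfrsf26 (0.0561) with poly I:C, and Tnfrsf17 between the ligands (0.0554). Requiring at least 2-fold left 9 members with poly I:C, 9 with PAM and 7 between the ligands, and 960, 838 and 991 of all genes. Among genes at 8 or above on all arrays, where fewer genes were tested, 11 members and 3895 genes were called with poly I:C and 12 members between the ligands. Without 1 array, members called ranged from 19 to 22 with poly I:C, 14 to 21 with PAM and 18 to 24 between the ligands, and all genes from 4452 to 6588, 3503 to 5190 and 4364 to 6296. Members lower with poly I:C numbered 2, against 4, under quantile normalization, and quantile normalization also lowered the poly I:C difference of Cd40 to 3.41, Tnfsf10 to 4.70 and Traf1 to 1.99. Without PAM replicate 1 the genes lower with PAM numbered 1828, against 2781. Dixon's test does not apply to groups of 2, and no batch is given in the labels. Signal over background is unknown, so a difference near 0 at a dim probe does not show that a gene was unchanged.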
